A study of Homo sapiens with 2 samples.

Results

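The integrin and laminin genes were examined in SBC-3 cells, an adherent line of small-cell lung cancer (SCLC), after siRNA transfection. Members were chosen by name alone. Their symbols begin with ITGA, ITGB, LAMA, LAMB or LAMC followed by a number, or with ITGAD, ITGAE, ITGAL, ITGAM, ITGAV or ITGAX. The arrays named 19061 genes, and 42 of them met this rule, with 56 probes in 135 spots. Of the 42 genes, 38 encode subunits: 18 integrin alpha chains, 8 integrin beta chains and 12 laminin chains. The other 4 share only the letters: ITGB1BP1, ITGB1BP2 and ITGB3BP encode partner proteins, and LAMB2P1 is a pseudogene of LAMB2. A further 11 symbols of the same form, mostly antisense transcripts, had no probe.

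The control cells received siGFP, an siRNA against green fluorescent protein, and the knockdown cells received #1 siHOTAIR, an siRNA against the long noncoding RNA HOTAIR. Both were the same unmodified line apart from the transfection, and the labels name no other agent. The Cy3-labelled RNA of either culture was read on a single one-colour Agilent array. Without replicates the 2 cultures were compared by their values only, with no P-value, and an effect of the siRNA cannot be told apart from a difference between the arrays or the cultures. The comparison asked how these adhesion genes read after HOTAIR knockdown, in a study that also measured growth and matrix invasion.

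Integrins are receptors of the plasma membrane, each made of 1 alpha and 1 beta chain. They bind proteins of the extracellular matrix or counter-receptors on other cells and connect them to the actin cytoskeleton, and their affinity is set from inside the cell by talin and kindlin. Laminins are cross-shaped proteins of the basement membrane made of 1 alpha, 1 beta and 1 gamma chain, and several integrins are their receptors. SCLC is often surrounded by such matrix in the lung, and attachment to laminin and fibronectin is a known influence on the survival of its cells.

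A signal below is the processed signal of the scanner software in arbitrary units, and the log2 ratio is #1 siHOTAIR over siGFP after each array was set to its own 75th percentile (650.3 and 629.9). Both arrays lay on 1 slide. A probe was compared when the scanner software placed 50% or more of its spots well above background for #1 siHOTAIR, for siGFP or for both. By that standard 64.5% of genes had a signal after #1 siHOTAIR and 66.9% after siGFP. The error given with a ratio is the standard deviation (SD) expected from repeated spots of that brightness, which covers measurement within an array only. It was estimated from probes with every spot well above background. For the dimmest of these the SD of a spot was 0.16 and 0.17 on the log2 scale, on the #1 siHOTAIR and siGFP arrays. For the brightest it was 0.05 and 0.05. Spots of probes dimmer than that spread more, with SDs of 0.69 and 0.44 for ITGAM and 0.59 and 0.85 for ITGB2. The SD given for a probe near background may thus be too small. HOTAIR itself, measured by 1 spot, read 108 against 244, a log2 ratio of -1.22 (SD 0.19) or a change of -57.2%.

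The labels give a tumour cell line, and markers of several cell types were read on the same arrays. Of the markers of SCLC subtypes and neuroendocrine cells, YAP1 (6522 and 6750) and NEUROD1 (213 and 372) were well above background on both arrays. CHGA and NCAM1 were so on the #1 siHOTAIR array only, and INSM1, SYP and POU2F3 on neither. Of the epithelial markers KRT8 and KRT18 were well above background on both arrays, KRT19 and EPCAM on 1 each and CDH1 on neither. Markers of cells that carry their own integrins were not all dim. PTPRC (106 and 61.0), CD14 and CD68 of the leukocyte markers and PF4, PPBP and GP9 of 4 platelet markers were well above background on both arrays, as were COL1A1 and COL1A2 of 5 fibroblast markers and CDH5 of 4 endothelial ones. CD3E and LCP1 were not well above background on either array. PPBP read 634 against 1384, a log2 ratio of -1.17. Both samples were cultures of the same cell line, and the source of these marker signals was not tested.

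Signals of 26 member genes could be compared, 24 of them on both arrays and 2 (ITGB8 and ITGAL) on the siGFP array only. The remaining 16 genes were well above background on neither. One gene, ITGB3, read at least 2-fold higher after #1 siHOTAIR and one, ITGB8, at least 2-fold lower, where over all 13005 genes compared 2.72% were higher and 3.39% lower by that much. On both arrays the count was 1 higher and 0 lower of 24, beside 1.40% higher and 1.48% lower of 12026 genes. At 1.5-fold, 3 members were higher (ITGB3, ITGB5 and LAMB1), beside 8.11% of all genes compared. Those lower by 1.5-fold numbered 4 (ITGB8, ITGAL, ITGB3BP and LAMB2P1), beside 8.67%. Among genes on both arrays the 1.5-fold counts were 3 and 2 of 24, beside 6.81% higher and 5.95% lower. ITGB8 and ITGAL are counted here at their own dim level. No count was read as particular to the members.

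The median log2 ratio of the 26 member genes was -0.09, with 12 above and 14 below 0, and that of all genes compared was 0.02. The direction of the member median was not fixed: scaling to the spike-in RNA moved the median of all genes to 0.14 and that of the members to 0.03. The laminin and the integrin chains had medians of opposite sign. The 7 laminin chains compared had a median of 0.32, with 4 above and 3 below 0. The 15 integrin chains had a median of -0.14, with 6 above and 9 below 0. Both groups thus held ratios of either sign. The laminin median stayed above 0 (0.15 to 0.45) and the integrin median below 0 (-0.16 to -0.02) under all the other scalings and background corrections tried. Some of these settings, such as spike-in scaling and no scaling, move every ratio by the same amount. Under them the distance between the medians could not change. No test of that difference could be made with 1 array per condition.

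**Figure D1:**
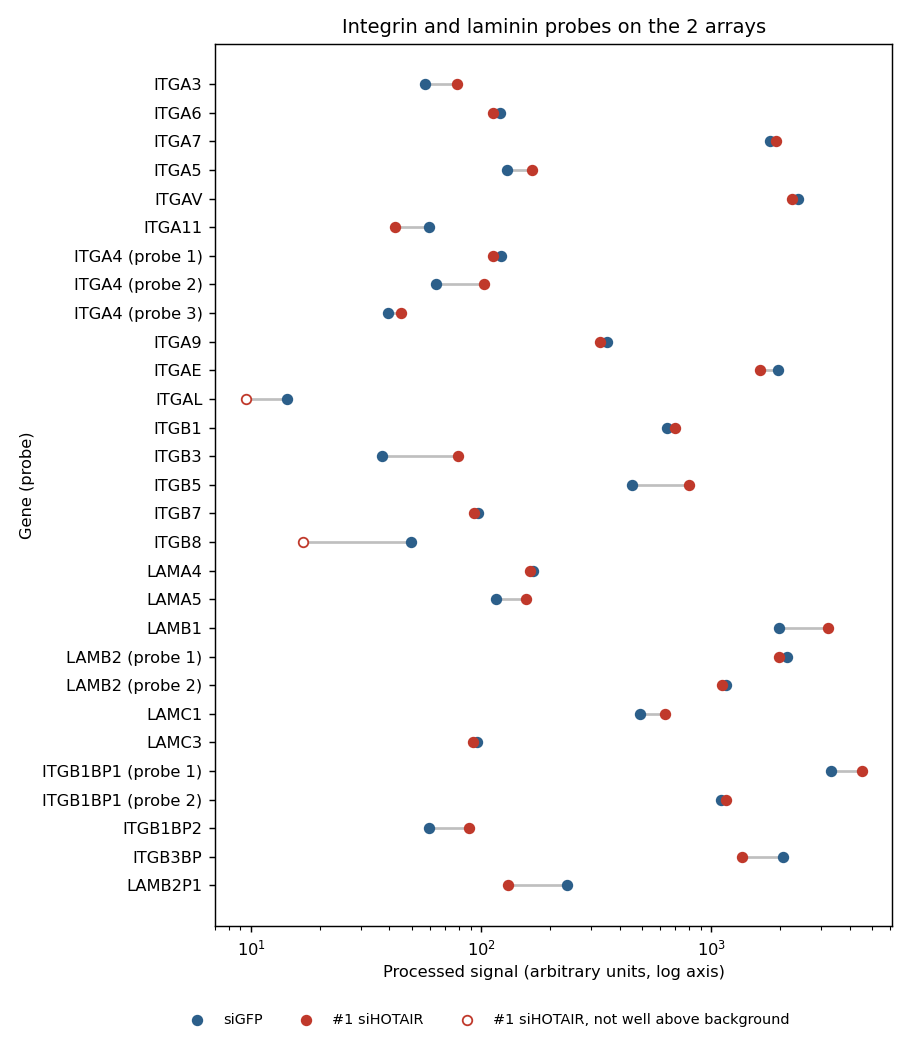
Processed signal (arbitrary units, log axis) of the integrin and laminin probes that were compared and are named in the text, with siGFP in blue and #1 siHOTAIR in red, and an open circle where the signal was not well above background. Only the 2 circles of a row are comparable, and the widest separations are those of ITGB3, ITGB8, ITGB5 and LAMB2P1.

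Of the 4 alpha chains that bind collagen, ITGA11 was the one with a signal well above background, and ITGA1, ITGA2 and ITGA10 were well above background on neither array. ITGA11, the fibroblast-type collagen receptor chain, read 42.3 after #1 siHOTAIR and 59.4 after siGFP, a log2 ratio of -0.54 (SD 0.16). By the larger error of the scanner software (0.27) ITGA11 lay within 2 errors of 0. Its 2 spots differed, with ratios of -0.85 and -0.22, and only 1 of them was well above background on the #1 siHOTAIR array.

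All 3 laminin-binding alpha chains were compared. ITGA3, a receptor chain for laminins of epithelial basement membranes, read 78.3 against 57.3 (log2 ratio 0.40, SD 0.16), with spots at 0.63 and 0.18. ITGA6, which pairs with ITGB1 or with ITGB4 in hemidesmosomes, read 113 against 120 (-0.14, SD 0.16), and a second probe was well above background on neither array. ITGA7, the main laminin receptor chain of muscle, read 1913 against 1810 (0.03, SD 0.06). Of these chains, only ITGA3 lay more than 2 SD of measurement from 0. By the larger error of the scanner software (0.23) it lay within 2 errors of 0. Its ratio was 0.14 with normexp background correction and 0.13 without background correction, which is less than 1 SD.

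Integrins with ITGAV, ITGA5, ITGA8 or ITGA2B recognize the short motif RGD in fibronectin, vitronectin and fibrinogen. ITGAV, the common partner of 5 beta chains, was printed in 10 spots and read 2238 against 2384, a log2 ratio of -0.14 with a standard error of 0.02 over spots. Its spots ran from 2143 to 2419 on the #1 siHOTAIR array and from 2281 to 2491 on the siGFP array, so the ranges overlapped. ITGA5, the fibronectin receptor chain, read 166 against 129 (0.32, SD 0.16), with both spots higher (0.29 and 0.35). ITGA8 and ITGA2B, the platelet chain, were well above background on neither array.

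ITGA4 and ITGA9 form a branch of their own that binds VCAM1, osteopontin and fibronectin. The 3 ITGA4 probes did not give 1 direction. The probe of highest signal read 113 against 122 (log2 ratio -0.15), with spots at -0.40 and 0.10, while the other probes, of 1 spot each, read 103 against 63.4 (0.65, SD 0.23) and 44.8 against 39.5 (0.14). ITGA9 read 330 against 353 (-0.14, SD 0.10).

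The leukocyte alpha chains ITGAM, ITGAX and ITGAD were well above background on neither array. Among the 10 ITGAM spots, 0 after #1 siHOTAIR and 1 after siGFP were well above background, with signals of 8.13 to 41.9 and 15.3 to 48.8. ITGAL, the alpha chain of LFA-1, rested on 1 spot of 2. That spot read 10.3 after #1 siHOTAIR and 31.4 after siGFP, where it was well above background, and the other read 8.73 and 6.59, so no fold is given. ITGAE, which with ITGB7 binds E-cadherin, was well above background on both arrays and read 1637 against 1949, a log2 ratio of -0.30 (SD 0.06), with spots of -0.29 and -0.30. Over all alpha chains, 10 of 18 were compared, 3 above and 7 below 0, and on both arrays the ratios ran from -0.54 to 0.40.

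The members that differed most among the subunits were beta chains. ITGB1, the partner of most alpha chains, read 696 against 641, a log2 ratio of 0.07 with a standard error of 0.04 over 9 spots on each array. Its spots overlapped between the arrays, at 633 to 735 and 594 to 698. ITGB1 and ITGAV, the most widely shared chains, therefore both lay within 0.14 of 0 on the log2 scale.

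ITGB3 forms the vitronectin receptor with ITGAV and the fibrinogen receptor with ITGA2B. It read 79.5 after #1 siHOTAIR and 37.1 after siGFP, a log2 ratio of 1.05 (SD 0.16, scanner software error 0.26) or 2.08-fold. Its 2 spots read 91.8 against 38.5 and 69.0 against 35.9, with ratios of 1.21 and 0.90, so the arrays did not overlap but 1 spot was under 2-fold. The siGFP signal was close to the lowest one called well above background on that array (28.6). Without background correction the ratio of ITGB3 was 0.29, and with normexp background correction it was also under 2-fold. The platelet markers PF4, PPBP and GP9 had ratios of -0.53, -1.17 and -0.18 in these cultures, and any link to ITGB3 was not tested. No promoter sequence of ITGB3 or ITGAL was matched.

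ITGB5, another partner of ITGAV and a vitronectin receptor chain, read 804 against 453, a log2 ratio of 0.78 (SD 0.08) or 1.72-fold. Its spots gave 854 against 440 and 758 against 467, both higher after #1 siHOTAIR. The ratio kept its sign and ran from 0.69 to 0.90 under all the other settings tried. ITGB3 and ITGB5 were thus the beta chains with a positive ratio beyond 1.5-fold, and both pair with ITGAV, whose own ratio was -0.14.

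ITGB8, which with ITGAV binds latent TGF-beta, was well above background on the siGFP array only. It read 16.8 after #1 siHOTAIR and 49.4 after siGFP, which is at least 1.37-fold lower when the dim signal is raised to the lowest signal called well above background (37.3). At its own dim level the log2 ratio was -1.60, from spots of -0.64 and -2.57. The spots read 30.5 against 46.2 and 9.21 against 52.8, both lower after #1 siHOTAIR and far apart in size. The spot of -0.64 lay in row 74 of 384 and that of -2.57 in row 184. Spots in rows 1 to 144 were at least 2-fold different in 9.06% of cases, against 5.65% in other rows. Whether position on the array has a part in the ITGB8 values was not tested.

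ITGB7, the partner of ITGA4 and ITGAE in lymphocyte homing, read 93.6 against 97.0 (-0.10), with spots on either side of 0 (-0.48 and 0.28). ITGB2, the beta chain of all leukocyte integrins of the ITGAL, ITGAM, ITGAX and ITGAD group, was well above background in 0 of 10 spots after #1 siHOTAIR and 1 of 10 after siGFP (12.7 to 45.2 and 7.02 to 40.1). The remaining chains ITGB4 and ITGB6, which mark epithelia, were well above background on neither array.

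**Figure D2:**
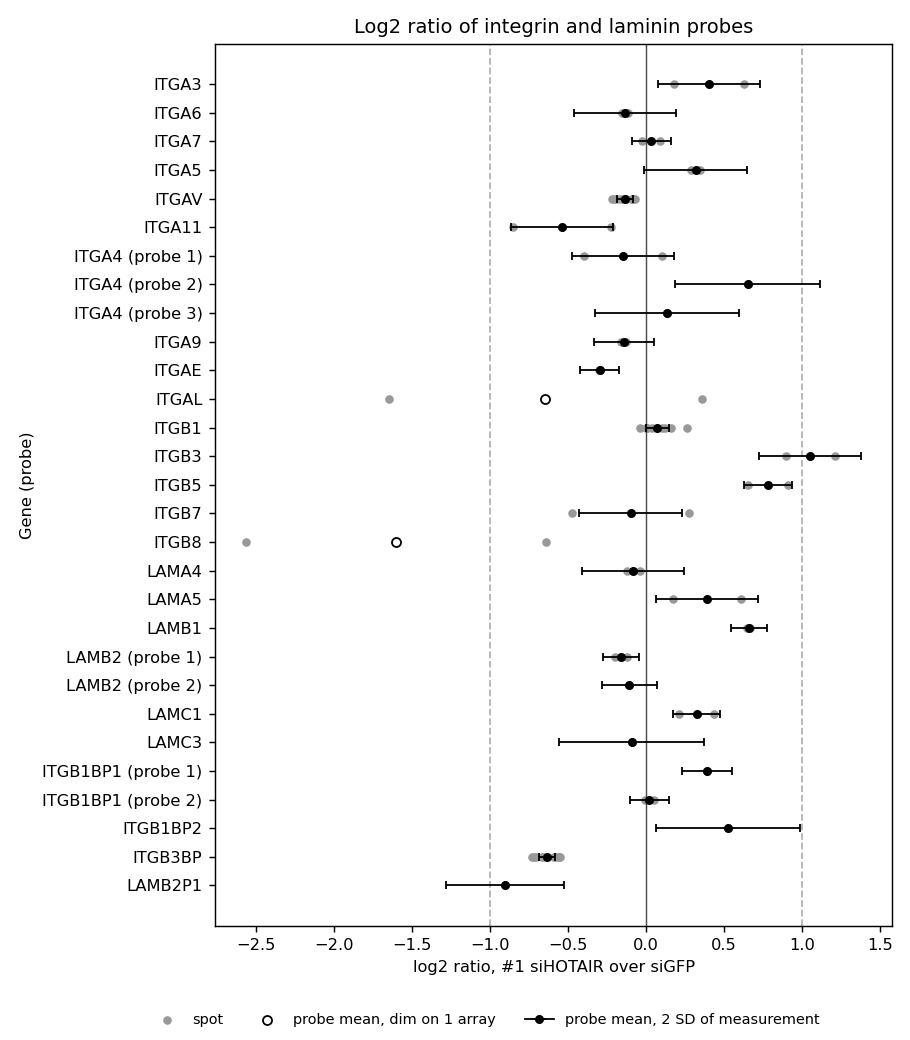
Log2 ratio of #1 siHOTAIR over siGFP for the compared member probes named in the text, with single spots in grey, the probe mean in black with bars of 2 SD of measurement, and open circles without bars where 1 array was dim. Dashed lines mark 2-fold; the mean of ITGB3 lies at 1.05 and that of ITGB8, from spots of -0.64 and -2.57, at -1.60.

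Among the laminin alpha chains, both arrays gave LAMA4 and LAMA5 well above background and neither gave LAMA1, LAMA2 or LAMA3. LAMA5, the broadest alpha chain of adult basement membranes, read 157 against 116 (log2 ratio 0.39, SD 0.16), with spots at 0.17 and 0.61. LAMA4, the chain of vessels and muscle, read 164 against 168 (-0.08), and its other 3 probes were well above background on neither array.

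The beta chains of laminin gave the largest laminin ratio. LAMB1, found in most early basement membranes, read 3232 against 1982, a log2 ratio of 0.66 (SD 0.06) or 1.58-fold. Its spots read 3063 against 1866 and 3411 against 2105, with ratios of 0.67 and 0.65, and the ratio lay between 0.62 and 0.78 under all the other settings tried. LAMB2, its counterpart at synapses and in the kidney filter, was measured by 2 probes that read 1982 against 2144 (-0.16) and 1114 against 1163 (-0.11). LAMB3, a chain of the epidermal laminin, and LAMB4 were well above background on neither array. Of the fibroblast markers, COL1A1 read 832 against 414 (0.96) and COL1A2 3758 against 3741 (-0.04), and DCN, LUM and COL3A1 were well above background on neither array. Any link of these markers to LAMB1 was not tested.

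Of the gamma chains, LAMC1, the gamma chain of most laminins, read 634 against 490 (0.32, SD 0.08), with both spots higher (0.44 and 0.21). LAMC3 read 92.7 against 95.6 from 1 spot (-0.09), and its other 2 probes were well above background on neither array.

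Of the genes that share only the letters, ITGB3BP was printed in 10 spots. It encodes a protein of the centromere that was also found as a binding partner of the ITGB3 tail. It read 1366 against 2053, a log2 ratio of -0.63 with a standard error of 0.03 over 10 spots, or a change of -35.5%. The spots ran from 1289 to 1457 after #1 siHOTAIR and from 1923 to 2138 after siGFP, so they did not overlap. ITGB3BP and ITGB3 thus had ratios of opposite sign.

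ITGB1BP1, which binds the ITGB1 tail and holds back its activation, read 4513 against 3333 from 1 spot (0.39) and 1160 against 1106 from another probe (0.02). ITGB1BP2, a chaperone-like protein of muscle, read 88.5 against 59.5 from 1 spot (0.53, SD 0.23, scanner software error 0.29). LAMB2P1 read 130 against 237 from 1 spot, a log2 ratio of -0.91 (SD 0.19) or a change of -46.6%. As it is a pseudogene of LAMB2, its signal may hold LAMB2 transcripts and is uncertain, and the sequences were not compared. Both LAMB2 probes lay within 0.16 of 0.

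**Figure D3:**
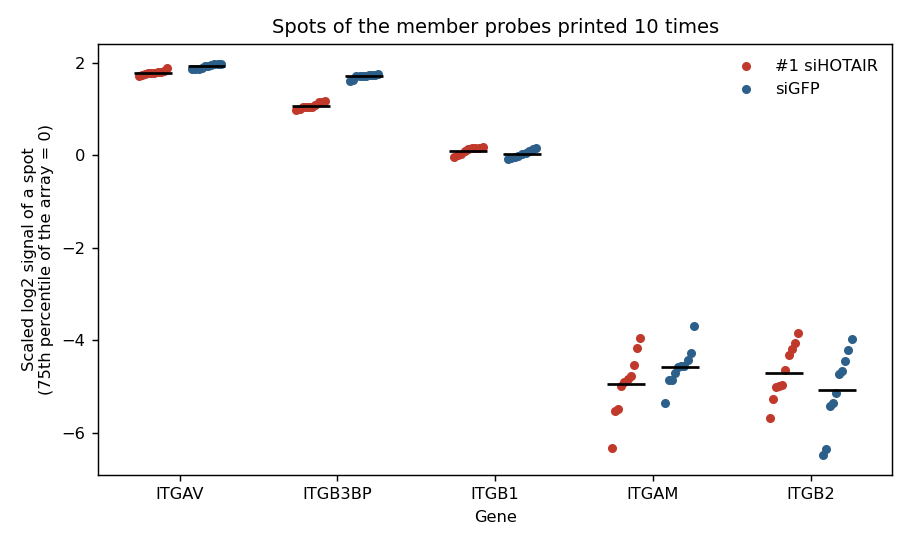
Log2 signal of each spot, scaled to the 75th percentile of its array, for the 5 member probes printed in 10 spots, with #1 siHOTAIR in red, siGFP in blue and bars at the means. The arrays separate for ITGB3BP (log2 ratio -0.63), overlap for ITGAV and ITGB1, and spread widely for ITGAM and ITGB2, which were well above background on neither array.

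The sequence before the transcription start is shown for ITGB5, LAMB1 and ITGB8, the subunit genes past 1.5-fold with an entry in the RefSeq promoter table (build GRCh38.p14). Each line holds the 250 bases upstream of the start on the coding strand, and capitals mark each GC box, the letters GGGCGG or their reverse complement CCGCCC, to which Sp-family factors bind.
ITGB5: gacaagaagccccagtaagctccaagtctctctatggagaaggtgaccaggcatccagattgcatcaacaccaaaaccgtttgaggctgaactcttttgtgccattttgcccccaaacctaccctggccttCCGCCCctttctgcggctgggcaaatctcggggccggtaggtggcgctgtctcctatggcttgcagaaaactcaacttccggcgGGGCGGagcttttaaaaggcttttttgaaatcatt
LAMB1: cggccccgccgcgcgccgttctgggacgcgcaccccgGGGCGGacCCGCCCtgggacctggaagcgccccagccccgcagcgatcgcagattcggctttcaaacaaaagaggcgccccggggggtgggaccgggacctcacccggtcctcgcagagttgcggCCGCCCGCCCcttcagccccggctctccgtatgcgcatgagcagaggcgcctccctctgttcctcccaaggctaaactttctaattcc
ITGB8: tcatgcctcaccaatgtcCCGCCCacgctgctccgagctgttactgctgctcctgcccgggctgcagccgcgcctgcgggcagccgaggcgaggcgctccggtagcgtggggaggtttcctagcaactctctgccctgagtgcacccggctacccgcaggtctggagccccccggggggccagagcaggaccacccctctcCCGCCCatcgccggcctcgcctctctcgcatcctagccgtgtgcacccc

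The ITGB5 sequence lies at chr3:124901419-124901668 on the minus strand, with 9 CpG dinucleotides, 52.8% GC and 2 GC boxes. LAMB1 lies at chr7:108003162-108003411 on the minus strand, with 28 CpG, 70.4% GC and 4 GC boxes, of which a pair overlaps. ITGB8 lies at chr7:20330650-20330899 on the plus strand, with 21 CpG, 71.2% GC and 2 GC boxes. A GC box was found in 42.3% of all 27305 promoters and in 13 of 26 matched member promoters. The TATA box letters TATAAA, searched on both strands, were in none of the 3 windows, in 11.1% of all promoters and in 1 of the 26. The median number of CpG was 10.5 for members and 11 for all. These counts describe the letters only, and ITGB5, which read higher, and ITGB8, which read lower, held 2 GC boxes each.

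Receptors need both chains, so the chains were read as pairs. The transcripts of both chains were well above background on both arrays for 12 of 24 known integrins: ITGB1 with ITGA3, ITGA4, ITGA5, ITGA6, ITGA7, ITGA9, ITGA11 or ITGAV, ITGAV with ITGB3 or ITGB5, and ITGB7 with ITGA4 or ITGAE. The pair of ITGAV and ITGB8 was so on the siGFP array only, and the other 11, all those of ITGB2 among them, on neither. For laminins, all chains of 6 of 14 known trimers were read: LAMA4 or LAMA5 with LAMB1 and LAMC1, LAMB2 and LAMC1, or LAMB2 and LAMC3. The other 8 lacked a read alpha chain, since LAMA1, LAMA2 and LAMA3 were all dim. These are counts of transcripts, and no protein or complex was measured.

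Genes that work with integrins and laminins were read from lists by function. Of 16 genes that activate integrins or link them to actin, 11 were compared, with a median log2 ratio of 0.04. LIMS2 (PINCH2), an adaptor of the ILK complex at focal adhesions, read 199 against 572 from 1 spot (-1.57, SD 0.12), the 1 gene of the list at least 2-fold lower, and none was as much higher. FERMT2 (kindlin-2), which binds beta chain tails, read 2463 against 1482 (0.69). ILK, measured in 10 spots, read 1555 against 1448 (0.06), and the talins TLN1 and TLN2 lay at 0.24 and 0.04. LIMS1, the close relative of LIMS2, read 851 against 791 (0.06).

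Of 19 integrin ligands, 10 were compared, 2 above and 8 below 0, with a median of -0.21. FN1, fibronectin, was well above background on the siGFP array only and read 24.0 against 57.2, at least 1.58-fold lower. CCN1, a matrix protein bound by ITGAV integrins, read 4700 against 8002 (-0.81), and ICAM3, a ligand of LFA-1, read 860 against 508 (0.71). VTN, the ligand of the ITGB3 and ITGB5 receptors, read 74.3 against 78.4 (-0.12).

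ITGAV with ITGB6 or ITGB8 can release TGFB1 and TGFB3 from their latent forms, which hold the RGD motif, while that of TGFB2 lacks it. The latent TGF-beta proteins and their binding partners lay above 0 in 6 of 6 genes compared of 8, with a median of 0.26, and none reached 2-fold. TGFB2 read 57.6 against 36.2 (0.62), TGFB3 43.9 against 30.1 (0.50) and TGFB1 1318 against 1054 (0.28). The TGFB3 signal after siGFP was near the lowest one called well above background there (28.6). Among all genes compared, 52.3% lay above 0.

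The other proteins of the basement membrane did not share the sign of the laminin median. Of 13, 7 were compared, 2 above and 5 below 0, with a median of -0.28 and none at 2-fold. COL18A1, the collagen that holds endostatin, read 13837 against 22115 (-0.72), while NID1, the nidogen that binds LAMC1, read 371 against 262 (0.46). The chains COL4A1 and COL4A2, which are transcribed from a shared promoter region, lay at 0.42 and -0.29.

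Of 8 laminin receptors that are not integrins, 6 were compared, with a median of 0.30 and none at 2-fold. The syndecans, heparan sulfate proteins that assist integrins, lay on either side of 0: SDC1 read 4396 against 2626 (0.70) and SDC4 414 against 694 (-0.79). DAG1, dystroglycan, read 831 against 671 (0.26). The enzymes that build the laminin-binding sugar of dystroglycan, 8 of 10 compared, had a median of 0.04, and B4GAT1 read 1031 against 630 (0.66) as the widest difference. Of 9 membrane partners, 6 were compared, with a median of -0.10 and none at 2-fold. BSG was the widest of those on both arrays, at 6395 against 8228 (-0.41). PLAUR, well above background on the #1 siHOTAIR array only, read 50.1 against 35.7 (0.44).

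**Figure D4:**
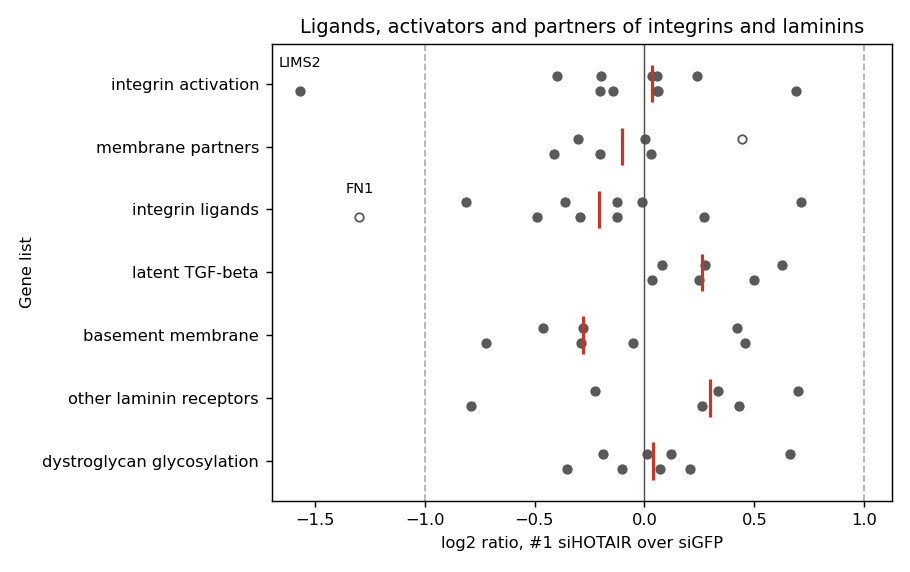
Log2 ratio of #1 siHOTAIR over siGFP for the compared genes of each list, with open circles for genes well above background on 1 array only, red bars at the list medians and dashed lines at 2-fold. LIMS2 (-1.57) and FN1, plotted at its own dim level, are the genes beyond the lines.

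The members past 1.5-fold differed in how far they depended on the processing. LAMB1, ITGB5 and ITGB3BP (-0.66 to -0.51) kept close values under every scaling and background correction. ITGB3 ran from 0.29 to 1.17 and ITGB8 from -1.68 to -0.47, or to -0.45 with its dim signal at the bound. LAMB2P1 ran from -0.93 to -0.55 and ITGAL from -0.85 to -0.28. These 4 genes were under 1.5-fold with normexp background correction and without background correction, and ITGAL and ITGB3BP also with spike-in scaling. LAMC1 (0.29 to 0.45) stayed above 0 throughout.

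**Figure D5:**
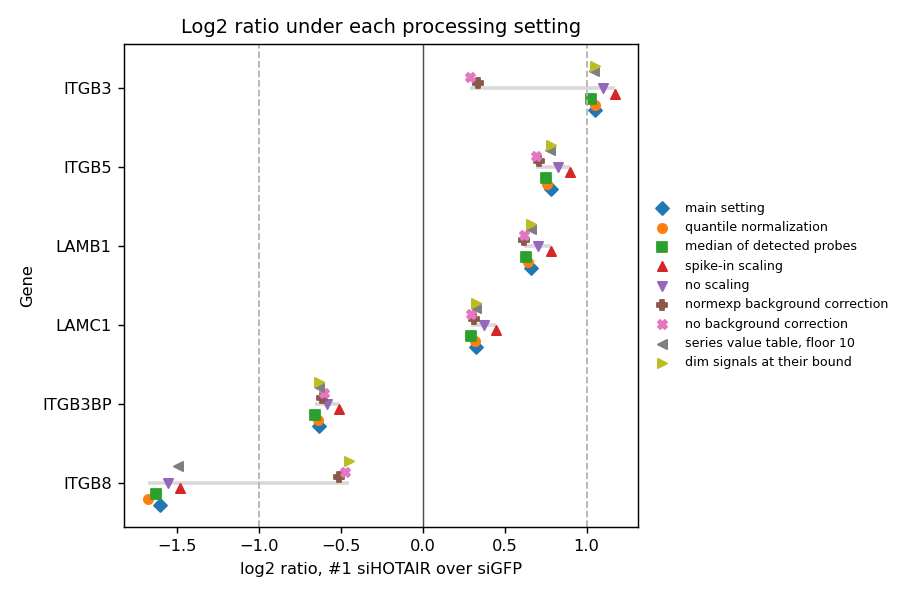
Log2 ratio of 6 member genes under the main setting, the other scalings and background corrections, and with dim signals at their bound, 1 marker per setting. Grey bars mark the range and dashed lines 2-fold. ITGB3 and ITGB8 spread widely, from 0.29 to 1.17 and from -1.68 to -0.45, while LAMB1 stays within 0.62 to 0.78.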

How the data were processed

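Total RNA of #1 siHOTAIR-transfected and siGFP-transfected SBC-3 cells was labelled with Cy3 and hybridized by the authors to 1 Agilent array each. The deposited intensity is the processed signal of Feature Extraction 10.10.1.1 (from the submitters' processing notes), background-subtracted and corrected for trends across the slide, without normalization between arrays. The series value table holds the background-subtracted intensity (largest difference 0) and was used as an alternative.

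Log2 signals were set against the 75th percentile of the non-control spots of each array. Outlier spots were left out and spots of a probe averaged. The probe of highest mean signal stood for a gene. For a bound, a dim signal was set no lower than the lowest spot well above background on its array. Accessions were matched without versions to RefSeq names of GRCh38.p14, which named 58.5% of the probes. Spot SDs were medians over probes printed 10 times with every spot well above background (633 and 652 probes), in 6 levels of signal. Python 3.11.15, numpy 2.4.6, pandas 2.3.3, R 4.3.3 and limma 3.58.1 (normexp, offset 50) were used. The calling was tested on simulated data with changes larger than 2-fold in brighter probes only. That simulation does not cover dim probes such as those of ITGB3 and ITGB8.

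Members and lists were chosen with earlier results of these data known. Every member was named or counted, and a few genes of the members and marker lists are not reported here, though they stay in the counts and medians. Of each list, genes at least 2-fold different were named, or otherwise the gene of widest ratio on both arrays. Other list genes, and the pairs and trimers of chains, were named after their values were seen. The genes CD63 and SLC3A2 had no named probe. The P-value and ontology steps of the methods were not run, and probe and protein sequences were not used here.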

Additional observations from a re-analysis of the deposited data

How the results depend on the processing

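The count of member genes at least 2-fold higher was 0 with normexp background correction, 0 without background correction and 0 at 3-fold, and 3 at 1.5-fold. The count lower was 0 with normexp, 0 without background correction, 0 for genes well above background on both arrays and 0 with dim signals at their bound, and 4 at 1.5-fold. The member median moved from -0.09 to 0.03 with spike-in scaling and to 0.05 without a filter, so its sign changed. Both moves were less than 0.15, the median measurement SD of a member probe's ratio. That SD is not a spread of the median and holds no variation between arrays. Of 29 probes with a value under all 8 other settings, 24 kept 1 sign. The exceptions were probes of ITGB1BP1, ITGB7, LAMA4, LAMB2 and LAMC3. Spike-in scaling and no scaling move every ratio by the same amount, so a ratio far from 0 keeps its sign under them. Setting dim signals at their bound changed only ITGB8 among these probes. ITGAL had a value under 7 of the other settings, below 0 in each, and none with dim signals at their bound. No paired analysis was possible because there was 1 array per condition, and for that reason no replicate could be left out. Precision was limited by the number of arrays and by signal over background: the 26 member probes well above background on neither array read 7.54 to 27.6 after #1 siHOTAIR and 5.72 to 32.4 after siGFP, and their median log2 ratio of 0.34 equals that of all such genes (0.34), so no difference was read from them.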
